A study of Rattus norvegicus with 8 samples.

Results

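Of 36 genes of glycolysis, fructose use and glycogen metabolism chosen by name, 33 were found on Affymetrix rat arrays of distal colon mucosa, out of 14217 genes with a probe set of their own. The set holds hexose carriers, the enzymes from hexokinase to lactate dehydrogenase, the kinases that set the level of fructose 2,6-bisphosphate, ketohexokinase, fructose bisphosphatase and the enzymes that build and break glycogen. A probe set, a group of short probes against 1 transcript, was taken only where the platform annotation gave it a single symbol, and the probe set with the highest mean over the 8 arrays stood for the gene. Hk3, Gapdh and Pkm had no such probe set and were dropped; those annotated to Gapdh and to Pkm each carry a second symbol. The RNA came from mucosal scrapings of rats fed a control breeder diet (4 samples) or the diet with 10 g of quercetin, a plant flavonol, per kg (4 samples), both for 11 weeks. The sources used here do not give strain, sex or age. Nothing in the labels states that the 8 samples are 8 different rats, so p-values cover only the spread among the samples, which may in part be technical. The question was which transcripts of the mucosa differ after long feeding of quercetin.

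Glycolysis splits glucose into pyruvate in the cytosol and yields ATP and NADH, and pyruvate is then reduced to lactate or burnt in mitochondria. Phosphofructokinase is its main control point, pushed by fructose 2,6-bisphosphate, while fructose bisphosphatase runs the opposite step of gluconeogenesis. Colonocytes draw most of their energy from butyrate made by bacteria, with glucose and glutamine as other fuels, and glycogen is a small local store.

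Of the 33 genes, 27 were among the upper 60% of probe sets by mean signal and were tested, and 6 lay below that filter, which stood at a signal of about 29.4. With limma's moderated test over all 18625 probe sets and Benjamini-Hochberg adjustment, 0 of the 27 passed an adjusted p of 0.05, where 0.0107% of all probe sets did, and the lowest adjusted p was 0.369. At an unadjusted p under 0.05 there were 5 genes, 4 higher and 1 lower in quercetin, which is 18.5% of the 27 beside 10.8% of all probe sets tested (5.04% higher and 5.71% lower). The groups did not overlap in 2 genes, both higher in quercetin, 7.41% beside 6.39% of all probe sets (3.09% higher and 3.3% lower). Of the 27 genes 16 had higher and 11 lower values in quercetin, with a median log2 difference of 0.10 beside 0.0085 over all probe sets, and 59.3% were higher beside 51.3%. The share at an unadjusted p rests on 5 genes. Without quercetin array 4 that count was 0 (8.9% of all probe sets in the same fit) and without quercetin array 2 it was 2 (7.96%). It was 3 without control array 3 (10.6%), control array 4 (9.35%), quercetin array 1 (9.03%) or quercetin array 3 (11.1%). The median was 0.20 without control array 1, 0.17 without control array 4, 0.15 without quercetin array 1 or 2, 0.046 without quercetin array 3, 0.025 without control array 2 and 0.0035 without quercetin array 4.

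**Figure D1:**
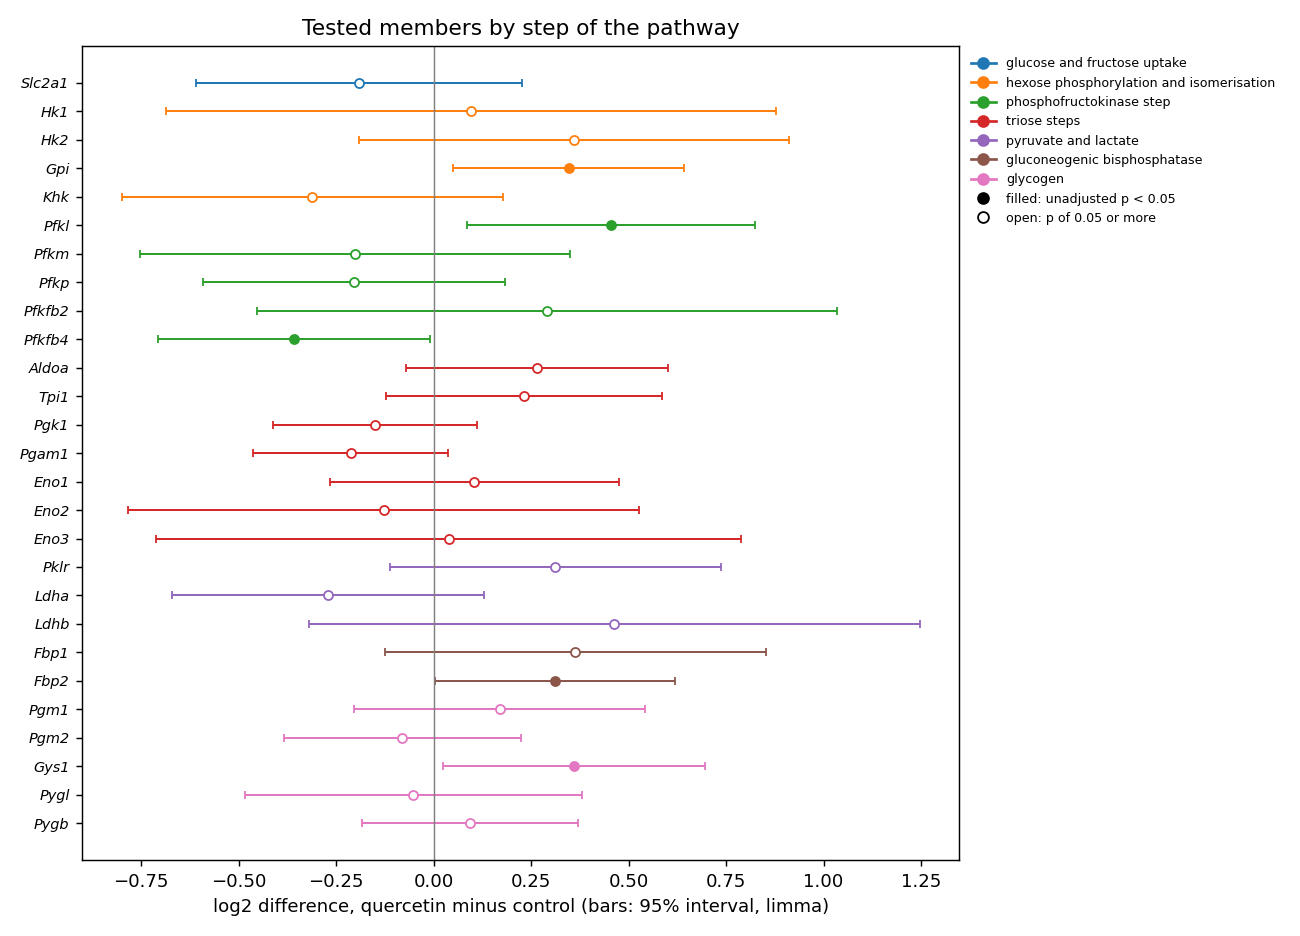
Difference in log2(signal + 16), quercetin minus control, for the 27 tested genes in the order of the pathway. Points are limma estimates from 4 against 4 arrays and bars their 95% intervals, colours mark the step, and filled points have an unadjusted p under 0.05. Filled points are Gpi, Pfkl, Pfkfb4, Fbp2 and Gys1, and the other 22 intervals include 0.

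The promoters of 3 members are shown because a short motif was spread unevenly over the 2 directions. The motif searched was ACGTG, the core bound by hypoxia-inducible factors, on either strand (so also CACGT), in the 250 bases before each gene's start in RefSeq's entries for build GRCr8. It is part of CACGTG, a motif of MYC and ChREBP, which counts as 2 overlapping matches. Capitals mark each match. Slc2a1 (chr5:138002272-138002521, plus strand) and Ldha (chr1:106507842-106508091, plus strand) hold it, and Pfkl (chr20:10663715-10663964, plus strand) does not.
Slc2a1: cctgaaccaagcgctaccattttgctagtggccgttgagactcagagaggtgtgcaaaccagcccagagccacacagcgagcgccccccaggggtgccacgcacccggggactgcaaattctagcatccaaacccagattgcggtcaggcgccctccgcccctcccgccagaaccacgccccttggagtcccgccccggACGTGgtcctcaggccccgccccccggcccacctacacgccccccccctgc
Ldha: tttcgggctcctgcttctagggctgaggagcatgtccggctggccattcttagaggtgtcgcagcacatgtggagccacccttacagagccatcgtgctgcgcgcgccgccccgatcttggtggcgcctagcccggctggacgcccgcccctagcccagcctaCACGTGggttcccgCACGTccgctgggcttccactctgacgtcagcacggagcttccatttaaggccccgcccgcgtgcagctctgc
Pfkl: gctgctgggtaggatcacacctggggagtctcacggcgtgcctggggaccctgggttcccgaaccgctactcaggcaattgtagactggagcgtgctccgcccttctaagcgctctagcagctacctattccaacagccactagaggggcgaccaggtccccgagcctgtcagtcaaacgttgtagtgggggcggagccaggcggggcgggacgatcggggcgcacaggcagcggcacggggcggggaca

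Among the 25 tested members with a promoter entry, 11 (44%) held ACGTG in at least 1 entry, beside 2018 of 8624 tested genes (23.4%). Of all 33469 promoter entries 16.6% held it, and 5.59% held CACGTG. Of the 38 entries of members 39.5% held ACGTG and 5.26% held CACGTG. The 11 were Slc2a1, Hk1, Pfkm, Aldoa, Pgam1, Eno2, Ldha, Pgm1, Pgm2, Pygl and Pygb. Of the 10 members with lower values in quercetin 7 held the motif, and of the 15 with higher values 4 did (Hk1, Aldoa, Pgm1 and Pygb). The 3 lower members without it were Khk, Pfkp and Pfkfb4. Among lower members only Pfkfb4 had an unadjusted limma p under 0.05. The 3 promoters printed above all go with the split. Over all tested genes the shares were 22.3% of those lower and 24.3% of those higher, so the array as a whole did not show the same split. With 1 array left out, between 7 of 12 and 7 of 10 lower members held it. Of the higher ones between 3 of 13 and 6 of 17 did. The signs of Slc2a1, Hk1, Eno1, Eno2, Eno3, Pgm2 and Pygl turned in some of those fits. The split among the members was noticed after their values were known and was not tested, and none of the 10 passed limma's adjusted threshold. A match in these letters is a description of the sequence and not of a bound site. The split is by ACGTG alone, since GCGTG was not counted.

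Of the 3 hexose carriers 1 was measured above the filter. Slc2a1 encodes GLUT1, the basal glucose carrier. Its signal was 2392, 1316, 1419 and 1189 on control arrays 1 to 4 and 1272, 1441, 1175 and 1446 on quercetin arrays 1 to 4. Control array 1 stood above the rest and the groups overlapped. The log2 difference was -0.19 (SE 0.193, limma adjusted p = 0.771), and without control array 1 it was 0.026. Slc2a2, the GLUT2 carrier of liver and small intestine, had signals of 2.35 to 11.9 on the 8 arrays. Slc2a5, the fructose carrier GLUT5, had 53.3, 11.0, 7.21 and 13.5 in control and 12.1, 6.80, 29.3 and 31.9 in quercetin. Both lay below the filter and were not tested.

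Glucose is trapped in the cell by hexokinases and turned into fructose 6-phosphate by glucose phosphate isomerase. Gpi, the isomerase, had signals of 3075, 2784, 3367 and 3410 in control and 3373, 4700, 3672 and 4428 in quercetin. The mean was 3159 ± 291 (SD, n = 4) against 4043 ± 624 (SD, n = 4), and only quercetin array 1 fell within the control range. Its log2 difference of 0.35 (SE 0.137, 95% interval 0.05 to 0.64) did not pass after adjustment (limma adjusted p = 0.39). In 5 of the 8 fits without 1 array the unadjusted limma p was under 0.05, but not without control array 2, quercetin array 2 or quercetin array 4. Hk2, the insulin- and hypoxia-responsive hexokinase, had 89.9, 56.5, 59.1 and 65.8 in control and 69.4, 70.4, 88.6 and 150 in quercetin. Quercetin array 4 was the highest and control array 1 the second, so the groups overlapped. Its log2 difference was 0.36 (SE 0.255, limma adjusted p = 0.651), and 0.15 without quercetin array 4. Khk, the ketohexokinase that opens fructose breakdown, had 122, 177, 100.2 and 148 in control and 80.3, 86.3, 129 and 134 in quercetin. Its groups overlapped and its log2 difference was -0.31 (SE 0.226, limma adjusted p = 0.661).

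Hk1, the constitutive hexokinase, varied more between arrays of 1 group than between the groups. Its signal was 1246, 339, 441 and 960 in control and 550, 484, 873 and 1021 in quercetin. Its log2 difference was 0.10 (SE 0.362, limma adjusted p = 0.954), with a sign that turned in 5 of the 20 alternative settings. Another Hk1 probe set, below the filter, had a log2 difference of -0.75. Eno3, the muscle form of enolase, had 1973, 777, 774 and 1369 in control and 920, 640, 1688 and 1821 in quercetin, a log2 difference of 0.04 (SE 0.347, limma adjusted p = 0.982). For both genes control arrays 1 and 4 and quercetin arrays 3 and 4 were the 4 highest. The array's own hexokinase control at the 3' end, which is not part of the test, had 134, 34.0, 60.9 and 95.8 in control and 59.9, 71.2, 108 and 126 in quercetin, with the same 4 arrays on top. The dimmer hexokinase controls differed. Control array 3 was among the 4 highest in place of quercetin array 4 at the 5' end, and of control array 4 in the middle. On the other Hk1 probe set quercetin array 3 was the lowest. The likeness of Hk1, Eno3 and the 3' control was noticed after the values were seen.

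**Figure D2:**
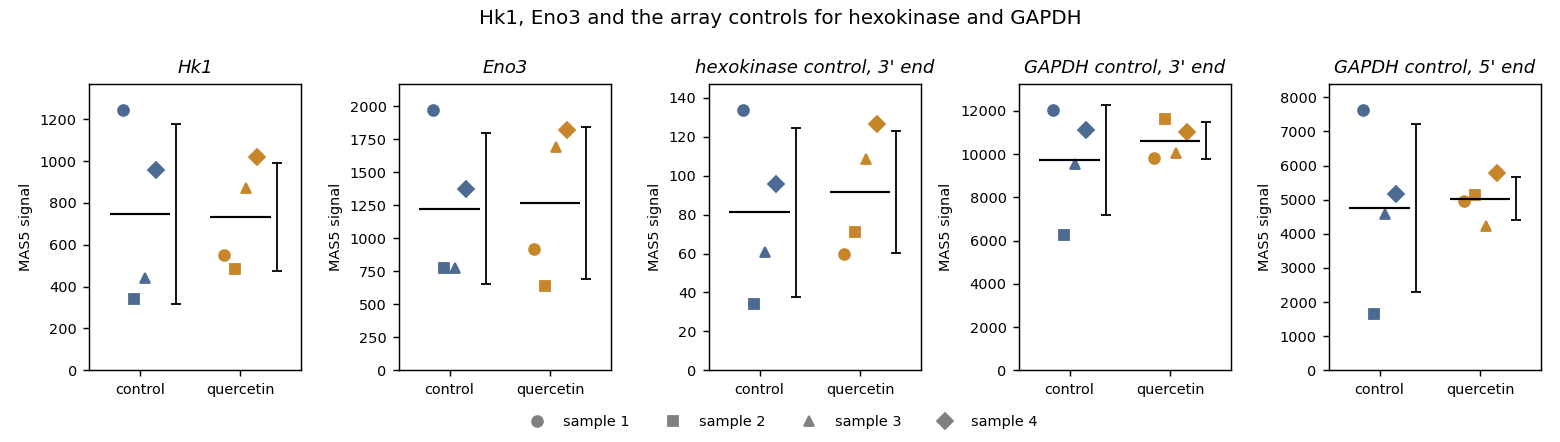
MAS5 signal of Hk1, Eno3, the 3' hexokinase control and the 3' and 5' GAPDH controls in the 4 control and 4 quercetin samples. Points are arrays, the marker shape gives the sample number within its group (nothing states that equal numbers pair samples), lines are means and bars beside them the SD. Samples 1 and 4 of control and 3 and 4 of quercetin are the highest for Hk1, Eno3 and the 3' hexokinase control. Control sample 2 is the lowest for both GAPDH controls.

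The phosphofructokinase step held the smallest p of the set and members on both sides. Pfkl, the liver-type subunit of phosphofructokinase, had signals of 123, 108, 102 and 130 in control and 160, 166, 145 and 187 in quercetin. Every quercetin array lay above every control array, with means of 116 ± 13.0 (SD, n = 4) and 164 ± 17.2 (SD, n = 4). On the log2 scale the difference was 0.45 (SE 0.170, 95% interval 0.09 to 0.82, limma adjusted p = 0.369). When each array was left out in turn, 6 of the 8 fits gave an unadjusted p under 0.05, with differences of 0.40 to 0.51. Pfkm, the muscle type, and Pfkp, the platelet type, had lower values and overlapping groups. Pfkm had a log2 difference of -0.20 (SE 0.255), with signals of 56.3 to 97.6 in control and 43.8 to 101 in quercetin. Another tested Pfkm probe set had -0.18 (SE 0.464), and 1 below the filter had 0.37. Pfkp had -0.20 (SE 0.179), with 1087 to 1978 in control and 1084 to 1550 in quercetin. Whether the 3 subunits differ from each other in their response was not tested.

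The bifunctional enzymes of the Pfkfb family make and remove fructose 2,6-bisphosphate. Pfkfb4 was the only member on the lower side with an unadjusted p under 0.05. Its signal was 429, 383, 389 and 326 in control and 240, 363, 284 and 297 in quercetin. Quercetin array 2 lay within the control range, above control array 4. The means were 382 ± 42.3 (SD, n = 4) and 296 ± 51.0 (SD, n = 4), and the log2 difference was -0.36 (SE 0.161, limma adjusted p = 0.449). Its unadjusted p was under 0.05 in 9 of the 20 alternatives, among them 2 of the 8 fits without 1 array. Another Pfkfb4 probe set below the filter had -0.05. Pfkfb2, the form of heart and kidney, had 19.3 to 76.5 in control and 28.9 to 71.9 in quercetin, a log2 difference of 0.29 (SE 0.344). Its other 3 probe sets, all below the filter, ran from -0.61 to 0.62. Pfkfb1, the liver form, and Pfkfb3, the inducible form, were below the filter. Pfkfb3 had 48.9, 32.6, 16.9 and 35.5 in control and 37.4, 26.6, 29.9 and 5.49 in quercetin, with log2 differences of -0.38 to -0.13 over its 3 probe sets.

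**Figure D3:**
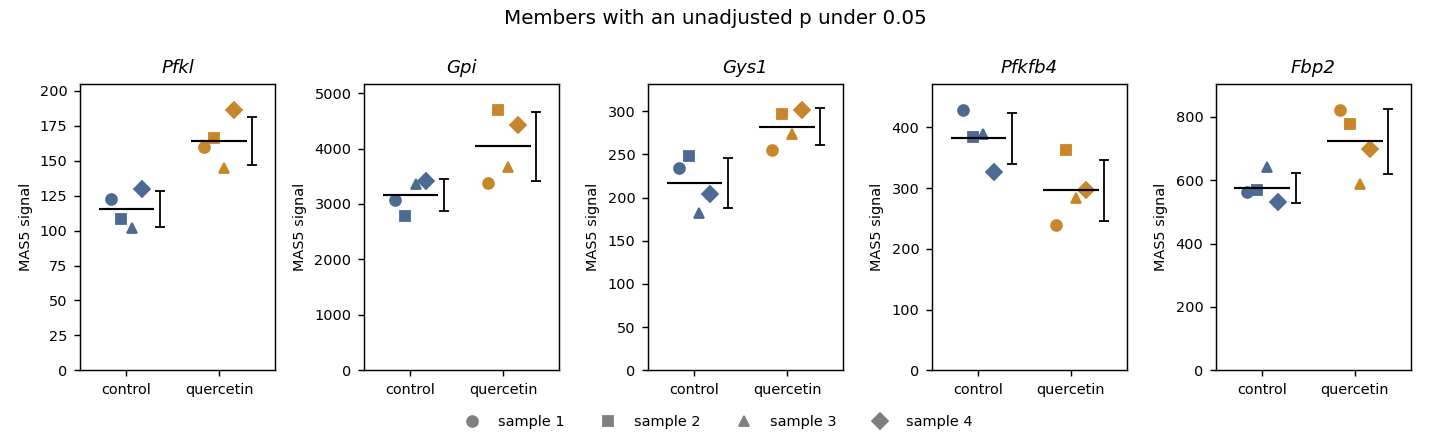
MAS5 signal of the 5 members with an unadjusted limma p under 0.05, in order of p, with an axis from 0. Points are arrays, the marker shape gives the sample number within its group, lines are means and bars beside them the SD (n = 4). All quercetin arrays lie above all control arrays for Pfkl and Gys1, while Gpi, Fbp2 and Pfkfb4 overlap.

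The triose steps, from aldolase to enolase, were measured for 7 of 9 genes on the array, with 4 higher and 3 lower, and 0 had an unadjusted p under 0.05 in limma. Aldoa, the main aldolase, had 12477, 8075, 9892 and 11961 in control and 10734, 14430, 12590 and 12764 in quercetin. Quercetin array 1 fell within the control range and the other 3 lay above it, with a log2 difference of 0.27 (SE 0.155, limma adjusted p = 0.581), or 0.14 without control array 2. Tpi1, triose phosphate isomerase, had 2326 to 3850 in control and 3271 to 4199 in quercetin, and a log2 difference of 0.23 (SE 0.164), or 0.084 without control array 2. Pgam1, phosphoglycerate mutase, had 4798, 3955, 4280 and 4210 in control and 4046, 3602, 3556 and 3648 in quercetin. Quercetin array 1 alone overlapped the controls, and the log2 difference was -0.21 (SE 0.115, limma adjusted p = 0.541). Pgk1, the first enzyme to yield ATP, had 5475 to 7105 in control and 5360 to 5973 in quercetin, a log2 difference of -0.15 (SE 0.121), and -0.038 (SE 0.215) on another tested probe set. Eno1, the general enolase, had 3458 to 6294 and 4984 to 5630, a difference of 0.10 (SE 0.171). Eno2, the enolase of neurons, had 22.1 to 56.3 and 24.2 to 39.6, a difference of -0.13 (SE 0.304). Aldoc, the brain aldolase, was below the filter with 4.40 to 38.2 over the 8 arrays, and so was Pgam2, the muscle mutase, with 1.32 to 11.8.

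Gapdh, the dehydrogenase that makes NADH, had no probe set with a single symbol. It was followed through the array's GAPDH controls, which probe 3 stretches of the transcript. At the 3' end the signal was 12049, 6244, 9547 and 11090 in control and 9798, 11631, 10026 and 11018 in quercetin. At the 5' end it was 7637, 1649, 4590 and 5166 in control and 4975, 5127, 4241 and 5775 in quercetin. Control array 2 was the lowest at both ends, and the groups overlapped. The log2 difference was 0.16 at the 3' end and 0.26 at the 5' end (two-sided exact permutation p = 0.629 and 0.771). Without control array 2 these were -0.03 and -0.18. In the middle stretch the difference was 0.29 (two-sided exact permutation p = 0.629), and -0.04 without control array 2.

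Pyruvate kinase and lactate dehydrogenase close the pathway. Ldha, the subunit that favours lactate, had 9042, 4516, 5979 and 7338 in control and 5846, 4967, 4931 and 5892 in quercetin. Control array 2 was the lowest of all 8 and the other 3 control arrays lay above every quercetin array. The log2 difference was -0.27 (SE 0.185, limma adjusted p = 0.64). Without control array 2 the difference was -0.45, with an unadjusted p under 0.05, and without control array 1 it was -0.11. Ldhb, the heart-type subunit, had 48.2, 11.96, 53.9 and 51.2 in control and 103, 32.5, 63.4 and 50.6 in quercetin. Its log2 difference was 0.46 (SE 0.362, limma adjusted p = 0.689), and 0.15 without control array 2. Pklr, the pyruvate kinase of liver and red cells, had 94.98 to 173 in control and 144 to 178 in quercetin. Its log2 difference was 0.31 (SE 0.196), and 0.15 on another probe set.

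The bisphosphatases undo the phosphofructokinase step. Fbp2, the muscle type, had 563, 568, 641 and 532 in control and 823, 779, 590 and 698 in quercetin. Quercetin array 3 was within the control range. The means were 576 ± 46.4 (SD, n = 4) and 722 ± 102 (SD, n = 4), and the log2 difference was 0.31 (SE 0.142, limma adjusted p = 0.46). In 8 of the 20 alternatives, 2 of them fits without 1 array, its unadjusted p was under 0.05. Fbp1, the liver type, had 72.3, 122, 128 and 78.3 in control and 165, 102, 118 and 143 in quercetin, a difference of 0.36 (SE 0.226, limma adjusted p = 0.602). Its groups overlapped, and control arrays 1 and 4 were the lowest.

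The 5 glycogen genes of the set were all above the filter. Gys1, the glycogen synthase of most tissues, had 234, 247, 182 and 204 in control and 255, 297, 273 and 302 in quercetin. Every quercetin array lay above every control array, with means of 217 ± 29.3 (SD, n = 4) and 282 ± 21.5 (SD, n = 4). Its difference of 0.36 on the log2 scale (SE 0.155) had a limma adjusted p of 0.433, and 3 of the 8 fits without 1 array kept an unadjusted p under 0.05. Pygl, the liver-type phosphorylase that breaks glycogen, had 725, 688, 757 and 684 in control and 826, 415, 768 and 842 in quercetin. Quercetin array 2 was the lowest of the 8 and the other 3 quercetin arrays were above every control. The log2 difference was -0.05 (SE 0.200, limma adjusted p = 0.955), and 0.18 without quercetin array 2. Pygb, the brain-type phosphorylase, had 2478 to 3345 in control and 2840 to 3403 in quercetin, a difference of 0.09 (SE 0.128). Pgm1 and Pgm2 encode mutases of sugar phosphates, and Pgm1 stands at the entrance to glycogen. Pgm1 had 376 to 448 in control and 364 to 632 in quercetin, a difference of 0.17 (SE 0.173), and 0.40 on another probe set. Pgm2 had 1585 to 2299 and 1535 to 1881, a difference of -0.08 (SE 0.140).

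**Figure D4:**
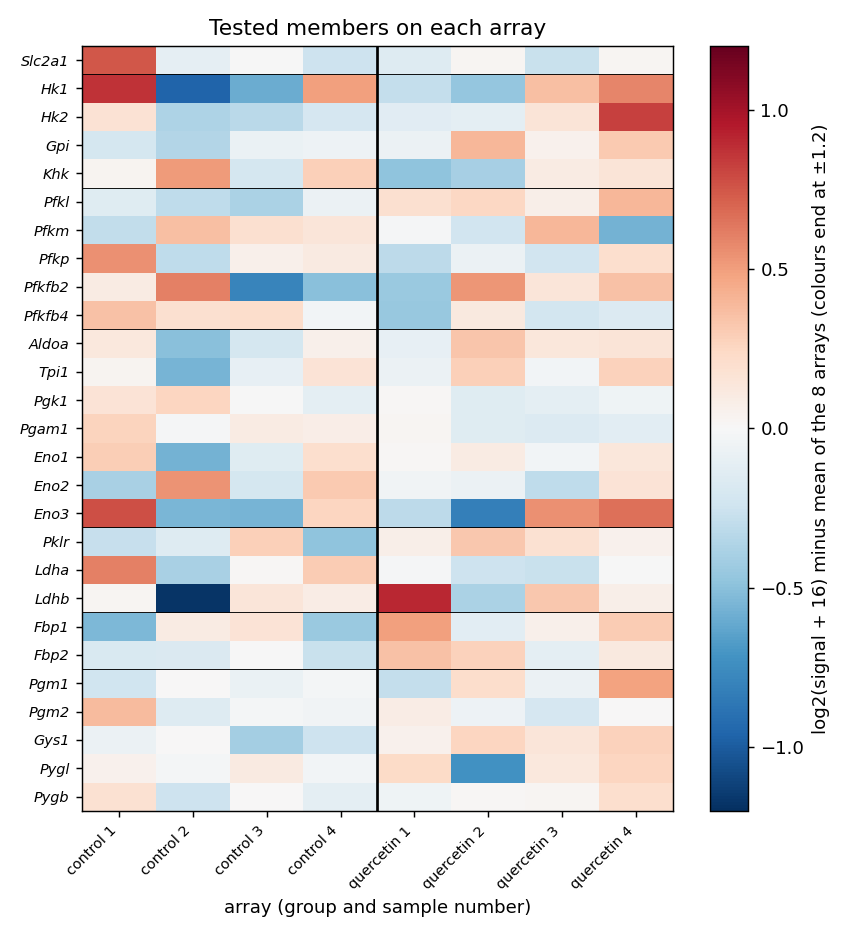
Deviation of log2(signal + 16) from the mean of the 8 arrays for the 27 tested members, in the order of the pathway, with control arrays on the left and quercetin arrays on the right. Red is above and blue below the gene's mean; control 1 holds the highest value of 9 genes, control 2 the lowest of 9 and quercetin 4 the highest of 6.

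Across arrays, control array 1 had the highest value of 9 of the 27 members and quercetin array 4 of 6. Control array 2 had the lowest of 9, among them Gpi, Aldoa, Tpi1, Eno1, Ldha, Hk1 and Hk2. The median deviation of the members from their own means was 0.10 on control array 1, -0.15 on control array 2 and 0.16 on quercetin array 4, beside -0.014, 0.054 and 0.0019 over all tested probe sets. Control array 2 also correlated least with the rest (mean 0.927) and had the highest 3' to 5' ratio of GAPDH, 3.79 beside 1.58 to 2.36 on the rest. The beta-actin ratio, another sign of RNA quality, was 8.65, 21.4, 10.2 and 12.4 in control and 7.18, 8.90, 9.12 and 6.79 in quercetin, a log2 difference of -0.64 (two-sided exact permutation p = 0.0857). With the GAPDH ratio as a covariate 7 members had an unadjusted limma p under 0.05 (13.9% of all probe sets did), Ldha (-0.35) and Pgam1 (-0.23) joining the 5, and the lowest adjusted p was 0.182. The part of RNA quality in the differences was not tested beyond that fit.

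Of 89 other genes of the pathway, taken from lists of carriers, gluconeogenesis, fructose and galactose use, glycogen, lactate transport and regulators, 73 were on the array and 62 were tested. None passed limma's adjusted threshold, 8 had an unadjusted p under 0.05 (5 higher, 3 lower, 12.9% beside 10.8% of all probe sets), and their median log2 difference was 0.03. Mlxipl, which encodes the glucose-sensing factor ChREBP, had 263, 307, 219 and 208 in control and 149, 147, 217 and 153 in quercetin. Only quercetin array 3 lay within the control range, and the log2 difference was -0.54 (SE 0.185, limma adjusted p = 0.342). Pck1, the gluconeogenic carboxykinase, had 7550, 7592, 6738 and 6595 in control and 6189, 4542, 6506 and 5541 in quercetin. Even the highest quercetin array was under the lowest control array, with a log2 difference of -0.33 (SE 0.135, limma adjusted p = 0.404). Of the 62 genes 2, Pck1 and Pgam5, had no overlap between the groups, 3.23% beside 6.39% of all probe sets.

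The carriers of lactate and other monocarboxylates lay on both sides. Slc16a3, the lactate exporter MCT4, had 459, 417, 259.8 and 524 in control and 185, 259.9, 344 and 330 in quercetin. Its groups overlapped through control array 3, and the log2 difference was -0.54 (SE 0.234, limma adjusted p = 0.435). Slc16a1, the MCT1 carrier that also takes up butyrate, had a log2 difference of 0.43 (SE 0.169, limma adjusted p = 0.388). Egln3, a prolyl hydroxylase that marks hypoxia-inducible factors for removal and is itself induced by them, had 0.67 (SE 0.265). The transcription factor Myc had 0.86 (SE 0.354), with 21.3 to 115 in control, lowest on control array 1, and 93.5 to 189 in quercetin. Pygm, the muscle phosphorylase, had 0.91 (SE 0.384), with signals of 50.1, 8.96, 39.3 and 6.78 in control and 42.4 to 78.2 in quercetin. The groups overlapped for both genes. Pgam5, a mitochondrial phosphatase of the mutase family, had 0.52 (SE 0.206). Its groups did not overlap, with 275 on the highest control array and 277 on the lowest quercetin array. In the lists with no gene at an unadjusted limma p under 0.05, the 2 with the smallest p are given. These were the carriers Slc2a13 (0.16, SE 0.147) and Slc5a1 (-0.34, SE 0.392), and Galt (0.38, SE 0.214) and Sord (0.75, SE 0.466), of galactose and polyol use.

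The scrapings carried the markers of colonic epithelium. All 12 markers of absorptive colonocytes and all 7 of goblet cells were above the filter, with summed signals of 72616 to 97295 in control and 82285 to 90540 in quercetin for the former. Of 11 smooth muscle markers 5 were below the filter, Tagln having a mean of 4.42 in control and 5.996 in quercetin. The summed signal was 1789 to 3423 and 1757 to 2162, most of it from Mylk (1798 ± 629 and 1295 ± 184, SD, n = 4; log2 difference -0.42, SE 0.205). Of 5 striated muscle markers on the array 4 were below the filter, with sums of 101 to 319 and 188 to 272; Fbp2 and Eno3, muscle forms, were measured in these same arrays. Of 9 leukocyte markers on the array 5 were tested and all 5 had higher values in quercetin. Below the filter, the log2 differences of Cd3e (-0.78) and Cd68 (-0.41) were negative and those of Cd79b (0.45) and S100a8 (0.71) positive. The sums of all 9 were 541 to 770 and 607 to 1005. All 7 proliferation markers had higher values, with sums of 823 to 2812 in control, lowest on control array 1, and 2553 to 4120 in quercetin. The parts of these cells in the differences of the glycolytic genes were not tested, and in such bulk tissue fewer cells of a type and less RNA per cell cannot be told apart.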

How the data were processed

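Biotin-labelled total RNA was read on Affymetrix arrays, 1 per sample. The submitters' processing notes name MAS5, and the deposited intensity values are on a linear scale, 1 signal per probe set; their mean, trimmed by 2% at either end, was 200.1 on every array. The sources used here give no scaling target or genome build. Low MAS5 signals are noisy on a log scale, and a common scaling compares arrays only if most transcripts hold their level.

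Analysis used log2(signal + 16), so differences of dim probe sets are understated. After 57 array controls were removed from the 31099 probe sets, the upper 60% by mean were fitted in R 4.3.3 with limma 3.58.1 (lmFit, eBayes with a trend, two-sided, Benjamini-Hochberg over all 18625), a procedure tested on simulated data. Adjusted and unadjusted p-values are from this fit unless another test is named. The median 95% interval reached 0.48 to either side. Symbols came from the platform annotation, 20826 probe sets having 1 symbol, 436 several and 9780 none; no symbol changed through the RefSeq gene table.

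Members, lists, tests and alternatives were chosen with earlier results of these data known. Values on every array are given for members with an unadjusted p under 0.05 or no overlap, and for Slc2a1, Hk2, Pfkfb3, Ldha, Slc2a5, Khk, Gys1 and Pygl whatever their values (Gapdh and Pkm, also chosen, had no probe set of their own); those of Hk1, Eno3, Aldoa, Pgam1, Ldhb and Fbp1 were added after they were seen. Pathway genes are named at an unadjusted p under 0.05, or as the 2 with the smallest p. The alternatives changed the pseudocount (to 1 or 64), the scaling (median centring or quantile normalisation), the filter (none, or the upper 40%), the weights of arrays, the replicate block, the trend, the probe sets of a gene (averaged), the covariates (the GAPDH ratio) and the arrays (control 1 and 2 left out, and each in turn).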

Additional observations from a re-analysis of the deposited data

Results flagged for a closer look

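In 66 groups of 4 arrays (33 genes in either diet), 1 array lay far from the other 3 in 5, where chance gives about 3.3. Each value divides that array's distance from its neighbour by the whole range of the group. Above the filter, Ldhb was low on control array 2 (0.906) and Pygl was low on quercetin array 2 (0.869). Below the filter, Slc2a2 was high on control array 2 (0.912), and Pgam2 was high on control array 2 (0.865) and on quercetin array 3 (0.906).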

How the results depend on the processing

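No member passed limma's adjusted threshold under any of the 20 alternatives, and 20 of the 27 tested members kept their sign in all of them. The 5 members with an unadjusted p under 0.05 became 3 under median centring (10.3% of all probe sets), 2 without the trend (9.87%), 2 with control arrays 1 and 2 left out (7.46%), and 0 to 4 without 1 array (7.96% to 11.1%). Genes with no overlap went from 2 to 6 with control arrays 1 and 2 left out (17.6% of all probe sets, 6.39% with all arrays) and to between 2 and 5 without 1 array (8.83% to 11.3%), since fewer arrays overlap less often. The replicate block left 2 members (Gpi and Pfkl) with an unadjusted limma p under 0.05 (11.1% of all probe sets). Nothing states that equal numbers pair the samples. The correlations of same-numbered deviations were -0.02, 0.16, -0.15 and 0.14, and control sample 1 correlated best with quercetin sample 4. With 4 samples a group these correlations cannot settle whether samples were paired. Signs turned for Slc2a1 (0.032) with control arrays 1 and 2 left out, and for Hk1 (-0.034) and Eno3 (-0.053) with the GAPDH ratio as a covariate; the cause was not tested. Without 1 array the differences spanned 0 for Slc2a1 (-0.31 to 0.026), Hk1 (-0.21 to 0.40), Eno1 (-0.065 to 0.22), Eno2 (-0.28 to 0.031), Eno3 (-0.18 to 0.32), Pgm2 (-0.14 to 0.033) and Pygl (-0.15 to 0.18). Members near the filter have wide intervals, and 4 arrays a group limit the precision.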
